A study of Mus musculus with 2 samples.

Results

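The 7 genes described here encode the cyclin-dependent kinase (CDK) inhibitors of quiescence and senescence. They are the Cip/Kip genes Cdkn1a (p21), Cdkn1b (p27) and Cdkn1c (p57), and the INK4 genes Cdkn2a (p16 and p19Arf), Cdkn2b (p15), Cdkn2c (p18) and Cdkn2d (p19Ink4d). They were chosen by name, as every probe that carried one of these gene names and was not a control, which gave 7 of the 22554 named genes and 12 of the 55681 distinct probes on the array. The rule used names alone and no expression value. RNA came from long-term hematopoietic stem cells (LT-HSCs), labelled CD150+CD48-Flt3-CD34- LSK, from the bone marrow of 2-year-old C57BL/6J mice. One group was labelled p38KO and the other wild-type, with 1 array in each. The p38KO mice were CAG-CreERT2 p38α fl/fl animals in which tamoxifen (TAM), given at about 1 year of age, was used to delete p38α (Mapk14), and the controls were TAM-injected p38α fl/fl mice without Cre. All mice thus carried the floxed alleles and received TAM, and the CAG promoter drives CreERT2 in cells throughout the body, not in LT-HSCs alone. The presence of Cre and the loss of p38α cannot be told apart in this design. The number of mice behind each array is not given in the sources used here.

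CDK inhibitors hold cells in or return them to a non-dividing state. The Cip/Kip proteins bind cyclin and CDK complexes through much of the cycle, whereas the INK4 proteins bind CDK4 and CDK6 and keep them from the D-type cyclins, so that the retinoblastoma proteins stay unphosphorylated and E2F factors stay silent. In HSCs, p57 and p27 are known for quiescence, p21 is the classical target of p53, and p16, p19Arf and p15 are known for senescence and for repression by Polycomb proteins in healthy stem cells.

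Each array held 62976 spots, of which 59305 were not controls, and both arrays lay on the same slide. A level here is the log2 processed signal of a probe minus the 75th percentile of its array, and a difference is the level on the array labelled p38KO minus that on the wild-type array. A probe was measured on an array when the scanner software marked it well above background there, which held for 67.9% of probes on the wild-type array and 69.0% on the other. With 1 array per genotype there is no test, no replicate check and no spread between mice. The only error at hand is technical: repeated spots of a probe had a median standard deviation of 0.10 (log2) on either array, so that a difference between 2 single spots has a technical standard deviation of 0.14. The software's own error, about 10% of a bright signal and more of a dim one, is larger and is given with the signals below.

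The gene targeted in these mice did not separate the arrays. Mapk14 (p38α) had 2 probes. The probe at chr17:28873965-28874024 (mm9) gave a signal of 604.6 ± 60.5 (software error) on the wild-type array and 468.5 ± 46.9 on the array labelled p38KO, a difference of -0.05 after scaling. The probe at chr17:28885290-28885349 gave 727.6 ± 72.8 and 569.3 ± 56.9, a difference of -0.04. The sources used here do not name the deleted exons, so whether these probes lie within the deleted part is not known. These probes therefore do not check the array labels, on which every direction below rests.

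Of the 12 probes, 8 were measured on both arrays, 1 on the wild-type array only and 3 on neither. The 8 covered 5 of the 7 genes. Among them 1 was higher by 2-fold or more on the array labelled p38KO, against 5.01% of the 35795 probes measured on both arrays, and 0 were lower by as much, against 5.52%. The median difference of the 8 probes was 0.0037, and that of all probes measured on both arrays was -0.0045. The counts alone thus do not set the inhibitors apart from other probes, and what stood out was limited to 2 probes, 1 of Cdkn1a and 1 of Cdkn2b.

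**Figure D1:**
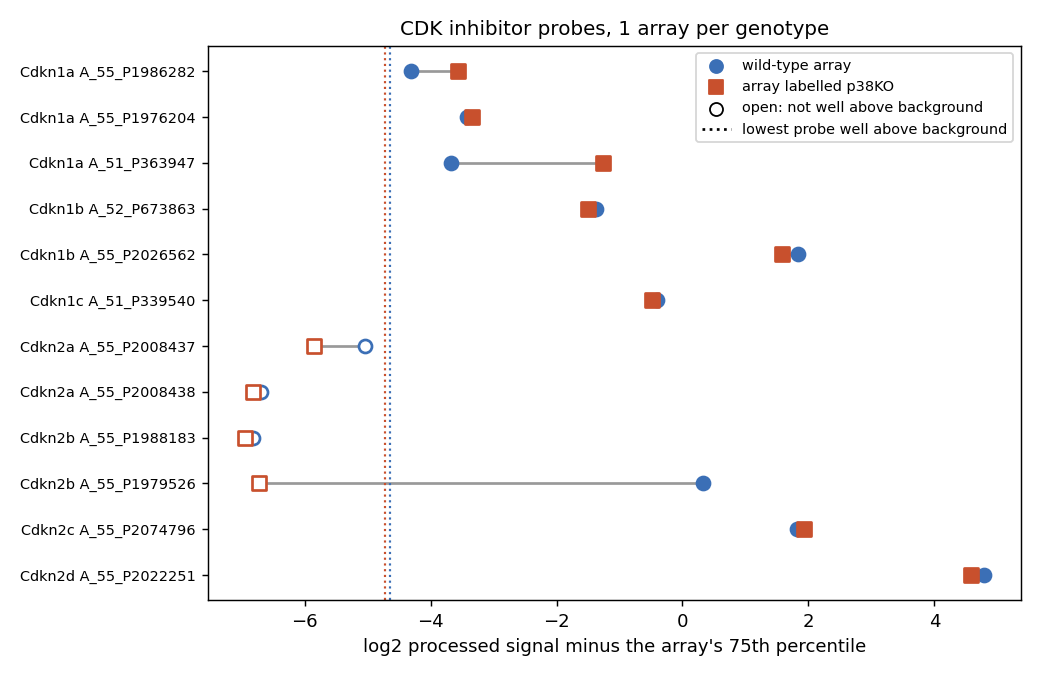
Level of each of the 12 CDK inhibitor probes (horizontal axis, log2 processed signal minus the 75th percentile of the array) on the wild-type array (circles) and the array labelled p38KO (squares). Open symbols were not well above background, dotted lines mark the lowest level that was, and only the Cdkn1a probe A_51_P363947 and the Cdkn2b probe A_55_P1979526 show a wide gap. Levels of different probes cannot be compared with each other.

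Cdkn1a encodes p21, which stops the cycle after DNA damage and other stress. Its 3 probes read different parts of the gene on chromosome 17, and they are shown here because they did not move alike. In mm9 coordinates, on the plus strand, A_55_P1986282 covers chr17:29227986-29228045 and is listed under transcript variant 2 only. A_55_P1976204 covers chr17:29235299-29235358 and is listed under an Ensembl transcript and not under either RefSeq transcript. A_51_P363947 covers chr17:29237377-29237436, 2078 bases further along, and is listed under both RefSeq transcripts. The second probe is given whole, with an ATG at base 55 in capitals, and the others by their first 30 of 60 bases, all 5′ to 3′.
A_55_P1986282: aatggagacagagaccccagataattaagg
A_55_P1976204: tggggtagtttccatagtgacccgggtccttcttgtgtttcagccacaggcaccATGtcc
A_51_P363947: ctaagggagctcacaggacactgagcaatg

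The probe common to both RefSeq transcripts, A_51_P363947, was brighter on the array labelled p38KO. It was printed in 10 spots on each array. On the wild-type array the lowest, median and highest spot gave 9.33, 10.9 and 14.2 intensity units. On the array labelled p38KO they gave 40.9, 49.3 and 53.5. These signals are before scaling. The spots did not overlap, but how often this held for other probes printed in as many spots was not counted. All 10 were well above background on both arrays. After scaling the level was -3.68 on the wild-type array (SD between spots 0.23) and -1.26 on the other (SD 0.11), a difference of 2.42, or 5.35-fold higher. The 10 spots are repeats within 1 hybridization, so they limit the error of the spot and say nothing of the spread between mice. Of the 275 probes printed in as many spots and measured on both arrays, 2.91% were higher by 2-fold or more, and 8.72% of the 5711 probes within 0.5 (log2) of the same mean level were. Only 0.263% of all probes measured on both arrays had a difference at least as large.

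**Figure D2:**
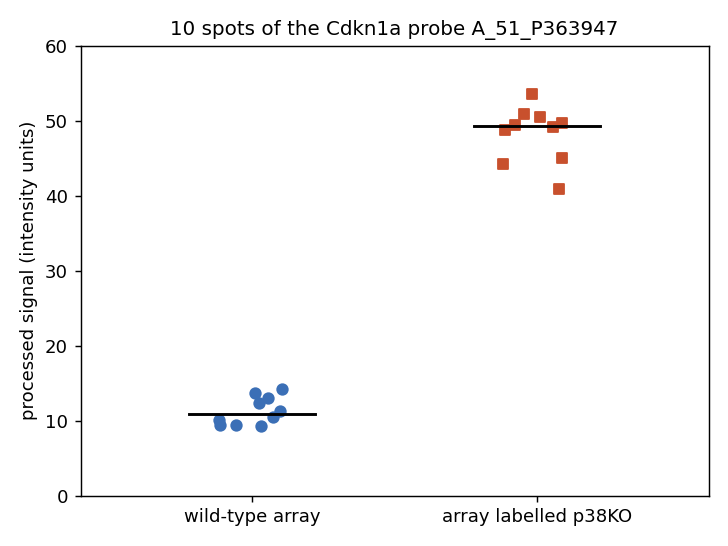
Processed signal (vertical axis, intensity units, from 0) of the 10 spots of the Cdkn1a probe A_51_P363947 on each array, with the median of each array as a black line. The spots lie between 9.33 and 14.2 on the wild-type array and between 40.9 and 53.5 on the array labelled p38KO; they are repeats on 1 array each, not replicate samples.

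The other Cdkn1a probes differed far less. The variant 2 probe A_55_P1986282 gave 7.23 ± 1.42 (software error) on the wild-type array and 9.70 ± 1.33 on the array labelled p38KO, a difference of 0.74 ± 0.35 after scaling. Probe A_55_P1976204 gave 13.4 ± 1.89 and 11.4 ± 1.51, a difference of 0.09 ± 0.28, which is within its error. Both lay close to background: the lowest signal well above background was 5.71 on the wild-type array and 4.36 on the other. The differences of the 3 probes thus spanned 2.34, from 0.09 to 2.42. Among the 1521 gene names with 3 probes measured on both arrays the median span was 0.74, and 3.09% had one at least as wide.

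The size of the Cdkn1a difference also hung on how background was treated, since the signal on the wild-type array was small. The mean pixel of the 10 spots was 33.5 there against a local background of 17.2, and 69.5 against 16.8 on the array labelled p38KO. With normexp background correction and an offset of 50, which adds a constant to every signal, the difference of A_51_P363947 was 0.86 and no inhibitor probe reached 2-fold. It was still among the upper 1.12% of all probes measured on both arrays. Under the other 6 settings it lay between 2.33 and 2.49.

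**Figure D3:**
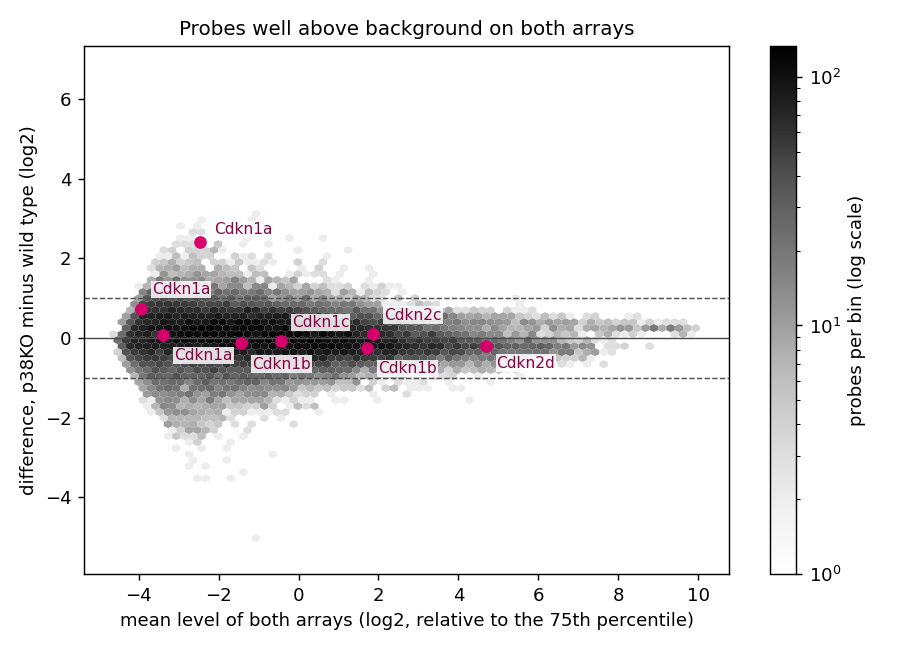
Difference (vertical axis, log2, array labelled p38KO minus wild-type array) against mean level (horizontal axis, log2, relative to the 75th percentile) for the 35795 probes measured on both arrays, with shade for the number of probes on a log scale. The 8 inhibitor probes are marked in colour and dashed lines show 2-fold; A_51_P363947 of Cdkn1a lies at 2.42 and the other 7 lie between -0.24 and 0.74.

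RefSeq lists 2 starts for Cdkn1a, 2790 bases apart in GRCm38.p6, and the 250 bases before each are given because the probes separate a transcript with its own 5′ part from the rest. The upstream start follows chr17:29090729-29090978 and the downstream start follows chr17:29093519-29093768, both on the plus strand. Which start feeds which probe was not settled, since the probes are placed in mm9. Capitals in the upstream window mark a match to the p53 response element, read as 2 adjoining half-sites of 10 letters with at most 1 mismatch and the same on both strands. Capitals in the downstream window mark GC boxes, GGGCGG or its complement CCGCCC.
Cdkn1a upstream start: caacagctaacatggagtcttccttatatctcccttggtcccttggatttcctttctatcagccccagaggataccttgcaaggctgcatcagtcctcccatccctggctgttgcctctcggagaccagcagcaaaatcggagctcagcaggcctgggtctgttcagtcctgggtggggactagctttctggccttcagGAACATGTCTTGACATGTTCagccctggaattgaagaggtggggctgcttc
Cdkn1a downstream start: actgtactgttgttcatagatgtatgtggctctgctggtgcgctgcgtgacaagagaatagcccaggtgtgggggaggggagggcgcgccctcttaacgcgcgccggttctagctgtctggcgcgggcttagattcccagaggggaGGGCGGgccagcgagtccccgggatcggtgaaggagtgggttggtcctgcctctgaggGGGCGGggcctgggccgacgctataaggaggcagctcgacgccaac

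The p53 match began 51 bases before the upstream start and held 1 mismatch. Such a match was found in 29 of the 32851 windows of 300 bases in the table (0.0883%), and in 1 of the 9 windows of the inhibitor genes. The downstream window held 2 GC boxes, and a GC box was found in 7 of those 9 windows against 35.7% of all windows. Windows were found for 6 of the 7 genes, with Cdkn1c missing from the table. These are matches of letters in a window and say nothing of binding in these cells.

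Cdkn2b encodes p15, an INK4 inhibitor that responds to TGF-β. Its 2 probes lie 444 bases apart on the minus strand of chromosome 4, A_55_P1979526 at chr4:88952720-88952779 and A_55_P1988183 at chr4:88952276-88952335 (mm9), and are listed under the same RefSeq transcript. Their first 30 bases are shown since only the former gave a signal.
A_55_P1979526: ttgagcctcaccttgaagccaaggggatca
A_55_P1988183: ccagtgatgaattgtagtggtagcaggtta

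A_55_P1979526 gave 179.7 ± 18.0 (software error) on the wild-type array and 1.08 ± 1.09 on the array labelled p38KO, where it did not clear background. The fold is a lower bound, set against the lowest signal well above background on the dim array: the probe was at least 33.1-fold lower there. Among probes measured on at least 1 array, 2.50% were measured on the wild-type array only and lower by 2-fold or more by this bound. Of the 1991 probes measured on the wild-type array only, 15 had a bound at least as large. The other probe, A_55_P1988183, gave 1.26 ± 1.27 and 0.934 ± 0.937 and cleared background on neither array. This pattern, 1 probe measured on the wild-type array only and the other on neither, was shared by 114 of the 6232 gene names with 2 probes.

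The signal of A_55_P1979526 came from 1 spot, and the spots of other probes around it were also brighter on the wild-type array. Within 2 rows and columns, 12 of 21 spots were lower by 2-fold or more on the array labelled p38KO, with a median difference of -1.87, and 11 were well above background on the wild-type array only. Over the whole array 8.79% of spots were 2-fold lower and 3.56% were well above background on the wild-type array only. Around the other 20 inhibitor spots the median difference lay between -0.16 and 0.29, and between 0 and 5 spots were 2-fold lower. Within 10 rows and columns of the Cdkn2b spot the share was 124 of 395 spots. Its pixels were uneven too: their standard deviation was 51.5% of the mean, against a median of 19.6% over the 3641 spots of like brightness, of which 0.220% were as uneven. The spot carried no outlier mark. No level of Cdkn2b is read from this spot.

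**Figure D4:**
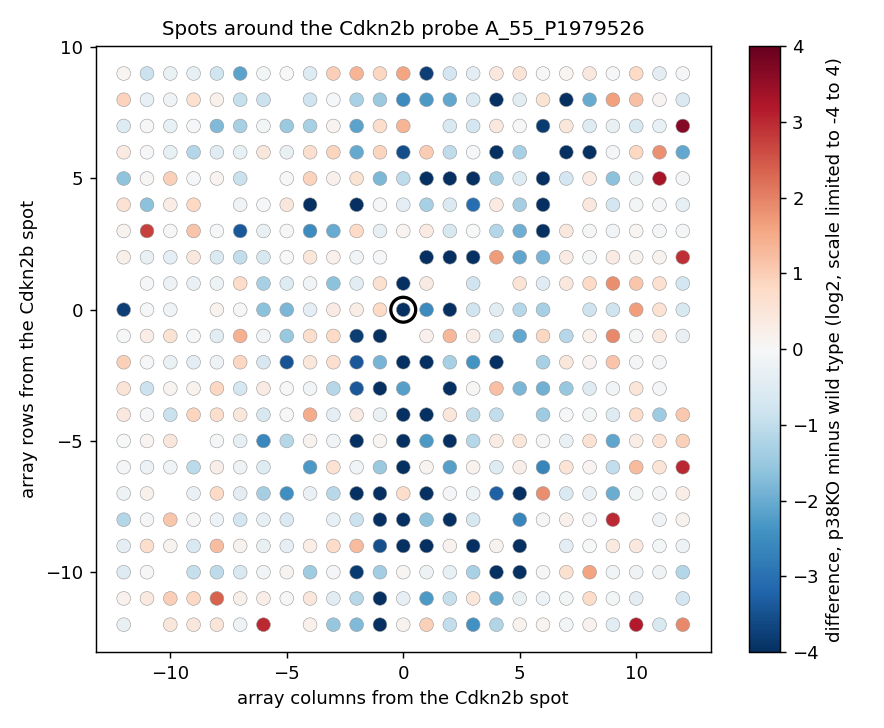
Spots within 12 rows (vertical axis) and 12 columns (horizontal axis) of the Cdkn2b probe A_55_P1979526, which is circled, coloured by their difference (log2, array labelled p38KO minus wild-type array, control spots left out). Blue spots, brighter on the wild-type array, gather in a band through the circled spot: within 2 rows and columns 12 of 21 were lower by 2-fold or more on the array labelled p38KO.

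Cdkn2a, the locus of p16 and p19Arf, gave no level on either array. Its 2 probes lie 138 bases apart on the minus strand of chromosome 4, at chr4:88920405-88920464 and chr4:88920543-88920602 (mm9), and both are listed under 2 RefSeq transcripts of the gene, so they could not have separated them. A_55_P2008437 gave 4.33 ± 1.40 (software error) on the wild-type array and 1.98 ± 1.01 on the array labelled p38KO. A_55_P2008438 gave 1.38 ± 1.39 and 1.02 ± 1.02. None of these 4 signals was well above background, so no fold is given, and a difference in Cdkn2a was not detectable on these arrays.

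Cdkn1b, Cdkn1c, Cdkn2c and Cdkn2d were measured on both arrays and differed little. Cdkn1b (p27) had 2 probes on the plus strand of chromosome 6, 1818 bases apart. A_52_P673863 at chr6:134873606-134873665 gave 55.6 ± 5.70 (software error) and 40.7 ± 4.18 on the wild-type array and the array labelled p38KO, a difference of -0.13 ± 0.21. A_55_P2026562 at chr6:134875424-134875483 gave 510.2 ± 51.0 and 346.0 ± 34.6, a difference of -0.24 ± 0.20. The 2 probes were 0.11 apart, and 84.3% of the 4650 gene names with 2 measured probes had a wider span.

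Cdkn1c (p57), which is imprinted and expressed from the maternal allele, had 1 probe at chr7:150644753-150644812, minus strand. It gave 108.4 ± 10.9 on the wild-type array and 82.5 ± 8.31 on the array labelled p38KO, a difference of -0.08 ± 0.21 after scaling. Cdkn2c (p18), with 1 probe at chr4:109333508-109333567, minus strand, gave 507.2 ± 50.7 and 436.8 ± 43.7, a difference of 0.10 ± 0.20. Cdkn2d (p19Ink4d), with 1 probe at chr9:21092934-21092993, minus strand, gave 3946 ± 394.6 and 2762 ± 276.2, a difference of -0.20 ± 0.20. The differences of Cdkn1b A_52_P673863, Cdkn1c and Cdkn2c were smaller than the 0.14 between single spots, whereas those of Cdkn1b A_55_P2026562 and Cdkn2d were larger than it and close to the software's error. In fold, the 5 probes of these genes lay between 1.18-fold lower and 1.07-fold higher. An absence of change is not shown by this, since nothing here measures the spread between mice.

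No annotation of mm9 was at hand, so whether each probe lies in coding sequence or in a UTR is not stated. All 12 probes were 60 bases long and held between 35.0% and 55.0% G and C.

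The kinases, cyclins and factors on which the inhibitors act lay on both sides of 0. In the lists below a gene is represented by its brightest probe. Over the 15657 genes measured on both arrays the median difference was -0.04, with 7331 higher and 8326 lower. Of them 3.18% were past 2-fold upwards and 5.02% past 2-fold downwards. All 14 CDKs and cyclins of G1 and S phase were measured, 4 higher and 10 lower, with a median of -0.10. The lowest was Mnat1, a subunit of the CDK-activating kinase, at -1.02, followed by the D-type cyclins Ccnd3 at -0.64 and Ccnd1 at -0.53. The highest were Cdk1 at 0.55, Ccna2 (cyclin A2) at 0.34 and Ccnd2 at 0.08, the last smaller than the 0.14 between single spots. The 3 Cdk1 probes lay between -0.29 and 0.55.

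The 13 pocket proteins and E2F factors had a median of 0.04, with 8 higher and 5 lower and 0 past 2-fold. E2f2 at 0.59, Rbl1 (p107) at 0.34 and E2f3 at 0.32 were highest, and E2f5 at -0.92, E2f6 at -0.23 and E2f7 at -0.19 lowest. The other E2f3 probe gave -0.41 and the other E2f7 probe 0.05, and with normexp E2f5 was at -0.06. The 24 proliferation genes had a median of 0.14, with 16 higher and 8 lower and again 0 past 2-fold. Plk1 at 0.48, Bub1 at 0.44 and Aurka at 0.38, all of mitosis, were highest, whereas Ccnb1 at -0.67, Gmnn at -0.46 and Top2a at -0.28 were lowest.

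The 13 genes of inhibitor turnover, which hold parts of the ubiquitin ligases that mark p27, p21 and p57 for degradation, had a median of -0.02. Rnf123 at 0.70 and Ubac1 at 0.30, the subunits of the ligase KPC that acts on p27, were among the 3 highest with Dtl at 0.31, but the other Ubac1 probe gave -0.36. Skp1 at -0.49 and Rbx1 at -0.36, subunits of the SCF ligase, were among the 3 lowest, whereas Skp2, its subunit that recognizes p27, was at 0.29. The lowest was Usp19, a deubiquitinase, at -2.08. Its other measured probe gave 0.94, and around the spot of the former 12 of 23 spots were lower by 2-fold or more, as around the Cdkn2b spot.

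Of 31 regulators of inhibitor transcription, 30 were measured, with a median of -0.05, 13 higher and 17 lower. Ets1 at -1.04 and Ets2 at -1.003, known as activators of Cdkn2a, and Gfi1 at -0.88, a repressor known for HSC quiescence, were lowest. The other Ets1 probe gave 0.44. Trp73 at 1.095, a relative of p53 whose other probe gave 0.20, Men1 at 0.67 and Klf4 at 0.51 were highest. The Polycomb genes known to repress Cdkn2a did not share a direction, with Bmi1 at 0.03, Ezh2 at 0.47 and Ring1 at -0.78, and Cbx8 was on neither array. The other Bmi1 probe gave -0.44. These Polycomb genes were named after their values were seen.

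Of 30 p53 targets other than Cdkn1a, 29 were measured on both arrays, 10 higher and 19 lower, with a median of -0.11 and 0 past 2-fold in either direction. Cd80 at 0.83, Polk at 0.78 and Dcxr at 0.36 were highest, with the other Polk probe at -0.17. Zmat3 at -0.93, Tigar at -0.88 and Bax at -0.81, the last a promoter of apoptosis, were lowest, and Zmat3 was at -0.38 with normexp. The best known target beside Cdkn1a, Mdm2, was at 0.12, and Trp53 itself at -0.52.

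Of 22 senescence-associated genes 14 were measured on both arrays, 8 higher and 6 lower, with a median of 0.15. Il1b at 0.89, Vegfa at 0.85 and Lmnb1 at 0.60 were highest, where lamin B1 is a gene known to be lost in senescent cells. Timp2 at -1.15, Plaur at -0.83 and H2aj at -0.77 were lowest. The other Vegfa probe gave -0.10 and the other H2aj probe 0.10. With normexp Il1b was at 0.35 and Plaur at -0.15, and around the Plaur spot 10 of 21 spots were lower by 2-fold or more. Il6, Cxcl1 and Cxcl2 were well above background on the array labelled p38KO only and 5 genes on neither. By the bound, Cxcl2 was at least 1.98-fold higher and Cxcl1 at least 1.14-fold. Il6 was 2.03-fold higher, which is the ratio of its own scaled signals and not a lower bound. Its signal on the wild-type array was not marked well above background but exceeded the lowest signal that was.

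The neighbours of Cdkn1c in its imprinted cluster were described because they lie near it on the chromosome. Of 14, 12 were measured on both arrays, with a median of -0.08, 5 higher and 7 lower. Kcnq1ot1, the noncoding RNA that silences Cdkn1c on the paternal allele, was at 0.06 by its brightest probe and between -0.59 and 0.79 over its 7 measured probes. Nap1l4 at -1.18, Tssc4 at -0.97 and Phlda2 at -0.76 were lowest, and Phlda2 was at -0.23 with normexp. The other Nap1l4 probe gave -0.29. H19 at 0.88, Th at 0.56 and Trpm5 at 0.21 were highest, with the 3 H19 probes between 0.07 and 1.23. Of the 7 genes named in these lists that were past 2-fold, 7 kept their sign with normexp by their brightest probe. By that probe 2, Usp19 and Nap1l4, were still past 2-fold with normexp. Without normexp the other measured probe of each of these 2 genes was not past 2-fold.

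**Figure D5:**
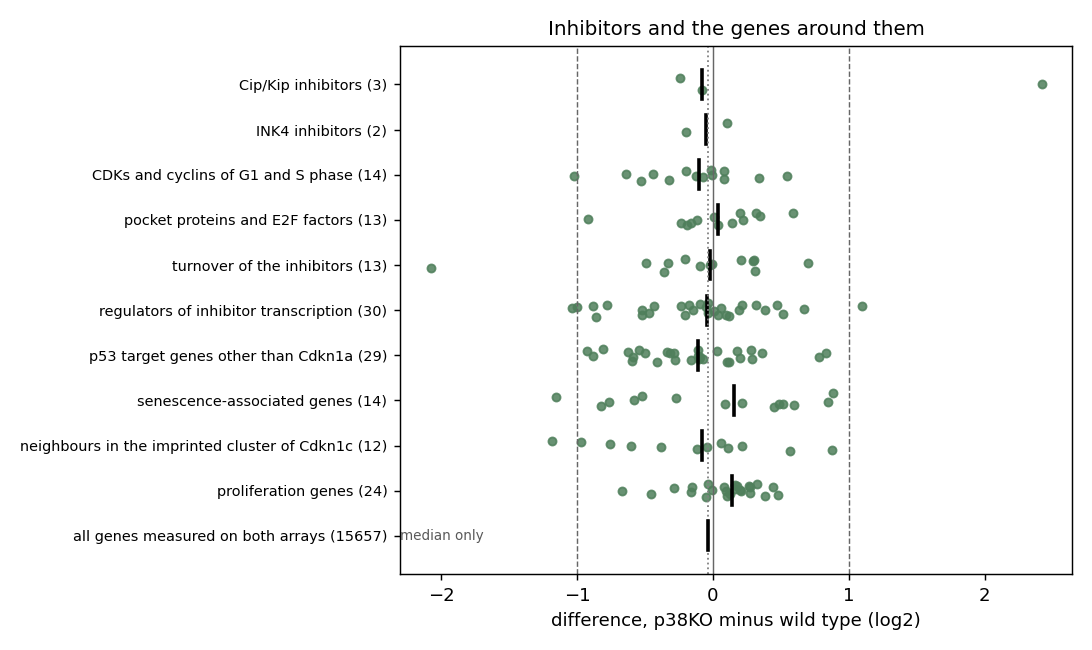
Difference (horizontal axis, log2, array labelled p38KO minus wild-type array) of the genes of the inhibitor and pathway lists measured on both arrays, 1 point per gene at its brightest probe, with the list's median as a black bar, the number of genes in brackets and dashed lines at 2-fold. For all 15657 genes the median alone is drawn, at -0.04. The medians of the lists drawn lie between -0.11 and 0.15, and Cdkn1a at 2.42 and Usp19 at -2.08 lie farthest from 0 among their genes.

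Markers of the sorted cells and of other blood cells differed between the arrays alongside Cdkn1a. Over all 15657 genes measured on both arrays, 7331 were higher on the array labelled p38KO and 8326 lower. All 15 HSC identity genes were measured, 14 of them lower on the array labelled p38KO, with a median of -0.52. The 3 Mecom probes lay between -1.44 and 0.61 and the 2 Ctnnal1 probes between -0.41 and 0.53. Levels taken back from the log2 scale and summed over these 15 genes came to 204.4 on the wild-type array and 164.5 on the other. Without Procr the sum was 183.6 against 155.5. Of the 13 myeloid genes measured on both arrays 9 were higher, with a median of 0.98. The 4 lower were Elane at -1.41, Lyz2 at -0.96, Cebpe at -0.80 and Prtn3 at -0.48. The sum of the 13 was 218.9 against 299.1, and 37.3 against 56.6 without Itgam, whose probes lay between -0.42 and 0.88. Ly6g was well above background on the wild-type array only and, by the bound, at least 2.69-fold lower on the other. All 7 B lineage genes measured on both arrays were higher, with a median of 0.69, and Igll1 was on neither array. Their sum was 3.86 against 18.9, and 2.73 against 3.69 without Jchain, which alone differed by 3.75. Of 8 T and NK genes 6 were higher, with a median of 0.59, and Cd3d and Cd3g were on neither array. The 2 lower were Cd2 at -2.07, the largest difference of that list, and Klrb1c at -0.53. With normexp Cd2 was at -0.38. The erythroid, megakaryocyte, and endothelial and stromal lists had medians of 0.37, -0.00 and 0.10, and Hbb-b1, Cdh5, Col1a1 and Col3a1 were among their genes on neither array. The erythroid sum was 83.7 against 75.0, and 13.9 against 18.9 without Car2. Sums of the megakaryocyte and the endothelial and stromal lists were 55.1 against 48.7 and 7.58 against 7.65. That of the T and NK list was 18.6 against 24.7. The sort took lineage-negative cells, leaving out those that stained for Gr-1 or Mac-1 (myeloid), B220 (B), CD4 or CD8 (T) or TER-119 (erythroid). The part of these genes in the Cdkn1a difference was not tested, and in bulk RNA fewer cells of a type and less RNA per cell cannot be told apart.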

How the data were processed

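The authors deposited, for each array, the spot intensity given by Agilent Feature Extraction 11.5.1.1, corrected for background but not normalized between arrays, and a table of normalized log2 values. That table equals the log2 signal minus 1 constant per array (7.16 and 6.84), its column medians are -0.79 and -0.79, and it holds only probes well above background on both arrays, 8 of the 12 probes among them.

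From the intensities, control and outlier spots were left out (19 of 55681 probes), the log2 signal was averaged over a probe's spots and the 75th percentile of each array subtracted (7.16 and 6.85). Signals are geometric means over spots. Levels are given without a floor and lower bounds use the lowest signal well above background on the dim array or the dim probe's own signal, whichever is higher. Probes were named by gene name, synonym or accession through RefSeq (GRCm38.p6) for 57.1% of probes, and spans between probes used the array's own gene names.

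The rule selects probes by gene name alone, but these genes and the lists were picked with earlier results of these data known. Named genes are every inhibitor probe, Mapk14, and, in each list, the 3 lowest and 3 highest differences of genes measured on both arrays. Others are said to be named after their values were seen, or lie outside the rule, such as Kcnq1ot1, Mdm2, Trp53 and genes measured on 1 array or on none. The search for the p53 element and the description of spots around a spot were also chosen after values were seen. The same values were recomputed after normexp (offset 50), loess (span 0.3) or quantile normalization, after centring each array on its median over detected probes, from the authors' values, with outlier spots kept and with the median of repeated spots. For the counts no filter and a 1.5-fold threshold were also tried, and for the lists a mean over each gene's probes and genes measured on at least 1 array. The calculation was tested on data simulated from the wild-type array, with changes put into brighter probes only. It thus does not cover signals as dim as those of the Cdkn1a probes on that array. The work was done in R 4.3.3 with limma 3.58.1 (normexp) and in Python 3.11.15 with statsmodels 0.14.6 (loess), pandas 2.3.3 and numpy 2.4.6.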

Additional observations from a re-analysis of the deposited data

How the results depend on the processing

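Of 178 values recomputed under the alternatives, 172 moved by less than 0.14 (log2) or, for counts, by no more than 1.5 times, 6 moved further and 0 of the differences above 0.14 changed sign. The count of inhibitor probes at least 2-fold higher was 1, with 0 under normexp background correction and 2 at a 1.5-fold threshold. The count at least 2-fold lower was 0, with 1 where no filter on dim probes was used, and that 1 was the Cdkn2b spot. The median of the INK4 list, -0.05, was -0.20 with genes measured on at least 1 array, since Cdkn2b then entered at its unbounded value. Under normexp the Cdkn1a difference of A_51_P363947 fell from 2.42 to 0.86 and that of A_55_P1986282 from 0.74 to 0.26, since the offset is large beside these signals. The Mapk14 differences lay between -0.11 and 0.03. No paired analysis was possible because the result comes from no test and each group holds 1 array, and no array could be left out for the same reason. Signal over background limits Cdkn2a, Cdkn2b and the Cdkn1a probes, whose signals on the wild-type array lay below 3 times the lowest signal well above background, apart from the 1 Cdkn2b spot.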
